A study of Mus musculus with 175 samples.

Results

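SLAM family receptors are immunoglobulin superfamily proteins of the surface of blood cells, and 5 of their genes, Slamf1, Cd48, Ly9, Slamf6 and Slamf7, were followed here by their symbols among the 49585 mouse features of the deposited counts. Reads of 3 of these 5 genes, Slamf1, Cd48 and Ly9, were found in the cells that passed the filters, in which 22262 mouse features had a read. Slamf6 and Slamf7 had 0 reads in all 175 deposited cells.

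The cells were single megakaryocyte-erythroid progenitors (MEPs) and common myeloid progenitors (CMPs) of mouse fetal liver at E14.5, sequenced by a modified Smart-Seq2 protocol, which reads full-length cDNA without molecular identifiers. The embryos came from a C57BL/6 by ICR cross and carried the Runx1 P1-GFP::P2-hCD4/+ reporter, in which GFP reports transcription from the P1 promoter of Runx1 and human CD4 that from its P2 promoter; the genotype field of the labels writes P2-GFP in place of P1-GFP. After the filters there were 56 MEPs without human CD4 (P2- MEPs), 47 with it (P2+ MEPs), 27 P2- CMPs and 42 P2+ CMPs, of 57, 48, 27 and 43 deposited; all of them, the P2- cells included, carried the reporter. The labels call the CMPs low and high, which were read as P2- and P2+. By the article's sorting scheme the progenitors were Lin- SCA1- C-KIT+ CD16/32low, with CD34 separating CMPs from MEPs, and CD41- CD150+. CD150 is the protein of Slamf1, so every cell was selected for the protein of 1 of the genes described. Livers of 2 litters had been pooled before the sort, so that each population was 1 sample without a replicate and no difference between populations was tested.

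Most SLAM receptors bind the same receptor on a neighbouring cell, and their cytoplasmic tails carry tyrosine motifs that recruit the small adaptors SAP (Sh2d1a) and EAT-2 (Sh2d1b1) and, through them, kinases such as FYN, or the phosphatases SHP-1, SHP-2 and SHIP1. CD48 differs in that it is held in the membrane by a lipid anchor, has no tail and binds CD244, and more weakly CD2. In blood formation the family is best known as a surface code: CD150 marks hematopoietic stem cells and progenitors of the megakaryocyte and erythroid lineages, and CD48 is gained as stem cells become progenitors.

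The family lies as a cluster on chromosome 1. By GENCODE vM21 on GRCm38, Ly9 (ENSMUSG00000004707.14) runs from 171588624 to 171607410 on the minus strand, Slamf7 (ENSMUSG00000038179.13) from 171632403 to 171653035 on the minus strand, Cd48 (ENSMUSG00000015355.13) from 171682009 to 171705258 on the plus strand, Slamf1 (ENSMUSG00000015316.11) from 171767127 to 171801184 on the plus strand and Slamf6 (ENSMUSG00000015314.10) from 171917515 to 171953170 on the plus strand. The exons of Slamf1, Cd48, Ly9 and Slamf6 overlap those of 0 other genes, while 9.24% of the Slamf7 exon bases overlap Gm37787. Ly9 lies inside the span of Cd244 on the opposite strand, and the exons of the pair share 0 bases.

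The 250 bases before the RefSeq starts of Slamf1 (chr1:171766882-171767131, GRCm38.p6, plus strand) and Cd48 (chr1:171681742-171681991, plus strand) are shown because these were the members read in most cells. Capitals mark the matches to 5 short motifs searched on both strands, TGTGGT for RUNX factors, AGATAA and TGATAA for GATA factors, and CGGAAG and AGGAAG for ETS factors, which were chosen after the sequences had been seen.
Slamf1: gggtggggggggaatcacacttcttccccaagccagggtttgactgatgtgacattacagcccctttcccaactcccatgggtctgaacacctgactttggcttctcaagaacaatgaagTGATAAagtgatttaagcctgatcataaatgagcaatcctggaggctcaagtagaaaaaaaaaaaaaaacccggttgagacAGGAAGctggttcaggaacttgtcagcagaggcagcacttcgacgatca
Cd48: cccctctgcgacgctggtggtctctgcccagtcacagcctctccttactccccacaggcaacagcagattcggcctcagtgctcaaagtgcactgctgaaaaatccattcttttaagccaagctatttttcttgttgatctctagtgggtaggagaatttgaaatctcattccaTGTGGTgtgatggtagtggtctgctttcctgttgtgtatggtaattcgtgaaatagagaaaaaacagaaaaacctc
The Slamf1 window held TGATAA, starting 130 bases before the transcript start, and AGGAAG, 49 bases before it. The Cd48 window held TGTGGT, 76 bases before the start, and the matches do not overlap each other. Over all 32851 RefSeq windows of this length, 14.05% held TGTGGT, 9.99% AGATAA, 7.94% TGATAA, 13.6% CGGAAG and 29.5% AGGAAG. Of the other members, Slamf7 held AGGAAG on the strand opposite to its transcript, 85 bases before its start, and Slamf6 held none of the 5. A match describes the letters of the window and says nothing of binding.

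Slamf1 RNA was lowest in P2- MEPs and highest in P2+ MEPs, although both had been sorted as CD150+. Over single cells it ran from 0 to 106 counts per 1000000 reads on mouse genes (CPM) with a median of 0 among P2- MEPs, and from 0 to 458 CPM with a median of 61.8 among P2+ MEPs. Single P2- CMPs ran from 0 to 228.04 CPM with a median of 0, and single P2+ CMPs from 0 to 536 CPM with a median of 1.30. The ranges of all 4 populations overlapped, since each held cells at 0. Pooled over the cells of a population, P2- MEPs held 8.23 CPM (95% exact Poisson interval 7.25 to 9.32) and P2+ MEPs 97.2 CPM (93.8 to 101). P2- CMPs held 37.2 CPM (34.5 to 40.1) and P2+ CMPs 69.3 CPM (66.6 to 72.1). Intervals of levels and ratios, here and later, cover counting error only. They treat reads as independent, although copies of 1 molecule could not be told apart. Later intervals of shares treat cells of 1 pool as independent draws.

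The difference between the MEP populations lay in both the share of cells with a read and the level of those cells. With each cell thinned to 100000 reads, Slamf1 was read in 6 of the 56 P2- MEPs (10.7%, 95% Clopper-Pearson interval 4.03 to 21.9%), 30 of the 47 P2+ MEPs (63.8%, 48.5 to 77.3%), 11 of the 27 P2- CMPs (40.7%, 22.4 to 61.2%) and 21 of the 42 P2+ CMPs (50%, 34.2 to 65.8%). Without thinning the cells numbered 9, 31, 12 and 24. The intervals of both MEP populations did not overlap, and those of both CMP populations did. Among cells with a read, the median was 39.3 CPM for P2- and 170.0 CPM for P2+ MEPs, and 47.1 CPM for P2- and 97.6 CPM for P2+ CMPs. The reads of P2- MEPs came from few cells, 3 of which held at least 50% of them, while 9 P2+ MEPs were needed to reach 50% of 3070 reads. Most P2- MEPs thus held 0 reads of a gene whose protein they had been sorted for, and a pooled level cannot tell fewer cells with the RNA from less RNA per cell.

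Cd48 was the most abundant member in every population and was higher in CMPs than in MEPs. Over single cells it ranged from 0 to 183 CPM with a median of 15.3 among P2- MEPs, and from 0 to 549 CPM with a median of 148 among P2+ MEPs. Single P2- CMPs ranged from 0 to 875 CPM with a median of 272.7, and single P2+ CMPs from 0 to 1243 CPM with a median of 452. The medians ascended in that order and all ranges overlapped. Pooled, P2- CMPs held 316.6 CPM (308.5 to 324.9) and P2+ CMPs 505 CPM (498 to 512), against 40.8 and 165 CPM for the MEPs without and with P2 activity. At 100000 reads per cell it was read in 32 of the 56 P2- MEPs (57.1%, 43.2 to 70.3%), 32 of the 47 P2+ MEPs (68.1%, 52.9 to 80.9%), 24 of the 27 P2- CMPs (88.9%, 70.8 to 97.6%) and 39 of the 42 P2+ CMPs (92.9%, 80.5 to 98.5%).

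The shares of cells with Cd48 lay closer in the MEP populations than those with Slamf1, at 57.1% of P2- and 68.1% of P2+ MEPs, a gap that was not tested. The median of the cells with a read was 50.1 CPM for P2- and 238.04 CPM for P2+ MEPs, with overlapping ranges of 1.67 to 183.4 and 29.2 to 549 CPM. The lowest non-zero value was 29.2 CPM (17 reads) in P2+ MEPs, so that a P2+ MEP had either 0 reads of Cd48 or at least 17, whereas P2- MEPs went down to 1 read. In CMPs the median of cells with a read was 303.8 CPM in P2- and 466 CPM in P2+ cells.

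Ly9, which encodes the receptor CD229, was read in few cells of each population. The cell of highest value reached 77.4 CPM among P2- MEPs, 132 among P2+ MEPs, 67.2 among P2- CMPs and 200.2 among P2+ CMPs, and the median was 0 in all 4. Pooled, P2- MEPs held 2.03 CPM (1.55 to 2.60) and P2+ MEPs 10.2 CPM (9.08 to 11.3), while P2- CMPs held 6.76 CPM (5.63 to 8.06) and P2+ CMPs 20.7 CPM (19.2 to 22.2). At 100000 reads it was read in 3 of 56, 8 of 47, 5 of 27 and 11 of 42 cells in the same order, and the intervals of these shares overlapped, from 5.36% (1.12 to 14.9%) in P2- MEPs to 26.2% (13.9 to 42%) in P2+ CMPs. A single cell held 51.6% of the 62 reads of P2- MEPs and 62.9% of the 124 reads of P2- CMPs. Slamf6 and Slamf7, known from T, B and natural killer cells, were not detectable at this depth. A count of 0 allows up to 3 reads, or 0.026 CPM over all 172 cells, and up to 0.164 CPM in P2- CMPs, the population with the fewest reads.

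Per kilobase of exon the members kept 1 order in every population. In RPKM, which divides CPM by the exon length in kilobases, Cd48 stood at 34.3 and 139 in P2- and P2+ MEPs and at 266.3 and 425 in P2- and P2+ CMPs. Slamf1 stood at 1.34, 15.8, 6.04 and 11.3 RPKM in the same order. Ly9 was lowest, at 0.613, 3.07, 2.05 and 6.25 RPKM.

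The first comparison asked how the genes differed with activity of the Runx1 P2 promoter among MEPs. Pooled Slamf1 was higher in P2+ MEPs by a log2 ratio of 3.56 (3.38 to 3.75), Cd48 by 2.01 (1.92 to 2.10) and Ly9 by 2.33 (1.93 to 2.74). A log2 ratio of at least 1 was therefore reached by all 3 members that could be compared, against 13.1% of the 12435 genes with at least 20 reads and reads in at least 5 cells of both populations together (7.01% were at -1 or below), and the median of all these genes was 0.034. A larger ratio than that of Slamf1 was found for 1.81% of the 12435 genes, than that of Ly9 for 4.21% and than that of Cd48 for 5.36%. Without the cell of highest CPM in each population the ratio of Ly9 was 3.02. It was lower with equal weight per cell, at 1.90, with DESeq2 size factors, at 1.93, and per ERCC read, at 1.71.

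Among CMPs the P2+ cells were also higher in all 3 members, by smaller ratios for Slamf1 and Cd48. The log2 ratio of P2+ over P2- CMPs was 0.90 for Slamf1 (0.77 to 1.02), 0.67 for Cd48 (0.63 to 0.72) and 1.61 for Ly9 (1.34 to 1.90). Only Ly9 of the 3 was past 1, and the share among all 12360 genes compared was 9.56% (8.76% at -1 or below). Slamf1 came past 1, at 1.06, without the cells that had reads of both Xist and a Y-linked gene. Among CMPs these were 2 P2- cells and 0 P2+ cells. Per ERCC read Slamf1 was at 1.23 and Cd48 at 1.003, and relative to the median of all genes on that scale at 0.92 and 0.70. Without the top cell of each population the ratio of Ly9 was 2.60. The P2 ratio in MEPs exceeded that in CMPs by 2.66 for Slamf1 (2.44 to 2.89 on the log2 scale), by 1.34 for Cd48 (1.24 to 1.44) and by 0.72 for Ly9 (0.24 to 1.19), a difference over 4 samples without replicates that was not tested. For Ly9 the ratios were 1.90 in MEPs and 1.59 in CMPs with equal weight per cell, and 1.93 and 1.57 with DESeq2 size factors. Their order turned per ERCC read, at 1.71 in MEPs and 1.94 in CMPs. Relative to the median of all genes on that scale they were 2.29 and 1.64.

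Between compartments the members parted. In P2- cells all 3 were higher in CMPs than in MEPs, with log2 ratios of 2.95 for Cd48 (2.87 to 3.04), 2.18 for Slamf1 (1.97 to 2.39) and 1.74 for Ly9 (1.29 to 2.20). All 3 were past 1, as were 19.3% of the 12269 genes compared (10.4% at -1 or below). In P2+ cells Cd48 was higher in CMPs by 1.61 (1.57 to 1.66) and Ly9 by 1.02 (0.83 to 1.22), whereas Slamf1 was lower in CMPs, at -0.49 (-0.57 to -0.41). That made 2 of 3 past 1, against 16.3% of the 12800 genes compared, and 0 of 3 at -1 or below, against 10.8%. Ly9 fell short of 1 in 3 alternatives, at 0.87 with DESeq2 size factors, 0.94 with equal weight per cell and 0.91 with every deposited cell. P2+ MEPs were the population with the highest Slamf1 and the next to lowest Cd48. The populations are shared between these comparisons, so the ratios are not independent of each other.

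**Figure D1:**
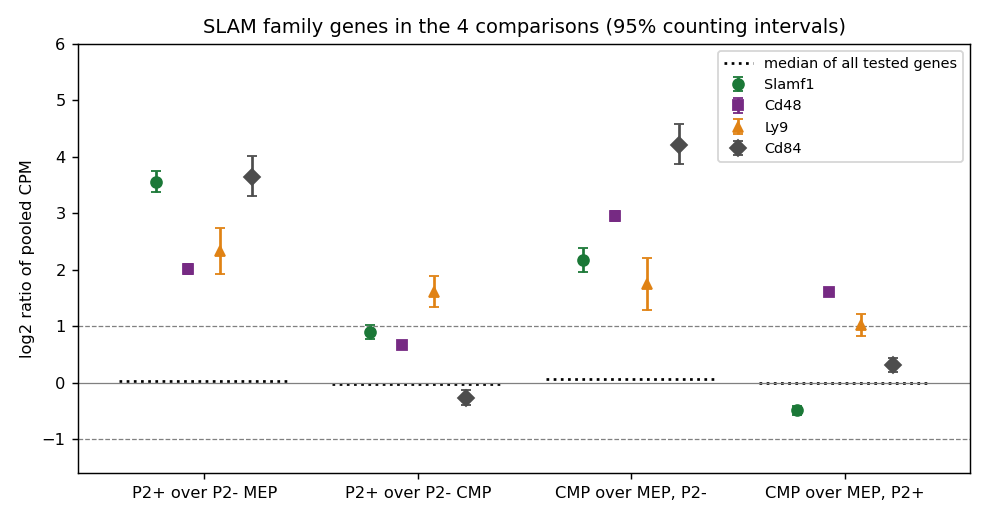
Log2 ratios of pooled CPM of Slamf1, Cd48, Ly9 and Cd84 on the vertical axis in the 4 comparisons on the horizontal axis, with exact 95% counting intervals, dashed lines at 1 and -1, and the median of all compared genes dotted. Slamf1 is at 3.56 in MEPs and -0.49 between P2+ CMPs and P2+ MEPs, and Cd48 is above 0 in all 4.

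Slamf1 and Cd48 were then read against each other in single cells. Of all 172 cells at 100000 reads, 56 had reads of both, 12 of Slamf1 without Cd48, 71 of Cd48 without Slamf1 and 33 of neither. Both were read in 2 of the 56 P2- MEPs (3.57%, 0.435 to 12.3%), 23 of the 47 P2+ MEPs (48.9%, 34.1 to 63.9%), 11 of the 27 P2- CMPs (40.7%, 22.4 to 61.2%) and 20 of the 42 P2+ CMPs (47.6%, 32 to 63.6%). P2- MEPs thus had the lowest share among the cells read, and the intervals of the other 3 populations overlapped. Whether the populations differ was not tested. Without thinning the cells with both were 5, 24, 12 and 23, and with at least 5 reads of each gene 3, 22, 11 and 19. Of the 6 cells with reads of both Xist and a Y-linked gene, 4 were among the 56 with both genes, 2 of them P2+ MEPs and 2 P2- CMPs; wells with more than 1 cell would add co-detection, and their number is otherwise unknown.

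Cells with reads of Slamf1 but not of Cd48, which says nothing of the CD48 protein, numbered 4 of the 56 P2- MEPs (7.14%, 1.98 to 17.3%), 7 of the 47 P2+ MEPs (14.9%, 6.20 to 28.3%), 0 of the 27 P2- CMPs, which by 3 counts of the total allows a share of up to 11.1%, and 1 of the 42 P2+ CMPs (2.38%, 0.060 to 12.6%). The median depth of the 7 P2+ MEPs was 629813 reads on mouse genes, against 624148 in the 23 with both. Cd48 without Slamf1 was the largest class in P2- MEPs, with 30 cells, and in P2- CMPs, with 13.

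**Figure D2:**
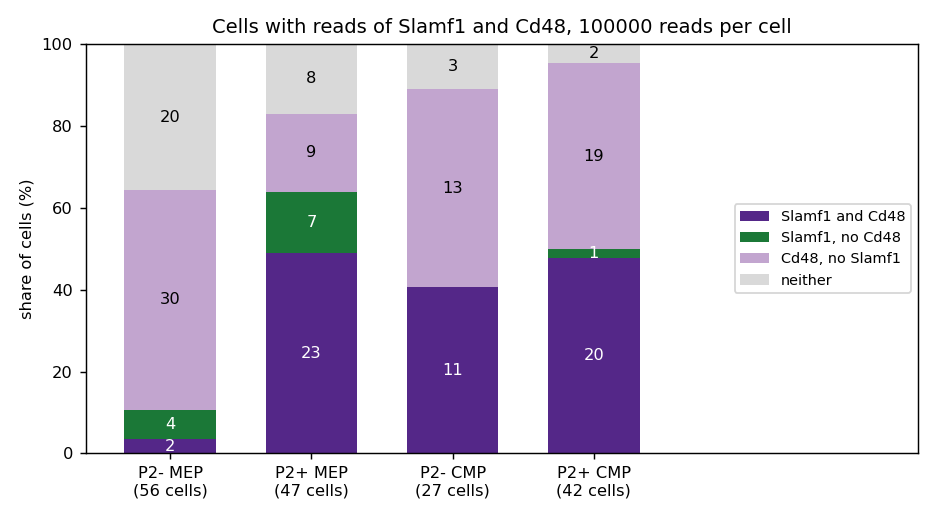
Stacked shares of cells (vertical axis, percent) with reads of Slamf1 and Cd48, of 1 of them or of neither in the 4 populations, each cell thinned to 100000 reads, with the number of cells printed in each segment. The class with both holds 2 of the 56 P2- MEPs, 23 of the 47 P2+ MEPs, 11 of the 27 P2- CMPs and 20 of the 42 P2+ CMPs.

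Within each population the interval of the share with Cd48 among cells with Slamf1 overlapped that among cells without it. In P2+ MEPs Cd48 was read in 23 of 30 cells with Slamf1 (76.7%, 57.7 to 90.1%) and in 9 of 17 without it (52.9%, 27.8 to 77.0%). In P2- MEPs the shares were 2 of 6 (33.3%, 4.33 to 77.7%) and 30 of 50 (60%, 45.2 to 73.6%), the other way round. In CMPs nearly all cells had Cd48 either way, 11 of 11 and 13 of 16 in P2- cells and 20 of 21 and 19 of 21 in P2+ cells. Spearman's rho of Slamf1 and Cd48 over cells was -0.19 for the 56 P2- MEPs, 0.29 for the 47 P2+ MEPs, 0.14 for the 27 P2- CMPs and -0.20 for the 42 P2+ CMPs, values that are described only, as the counts are sparse and the cells share a pool and a depth.

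The pooled level of Cd48 was then compared between cells with and without Slamf1. Pooled Cd48 was 388 CPM (373.5 to 403) in the 11 P2- CMPs with Slamf1 and 273.9 CPM (264.5 to 283.7) in the 16 without. A single cell held 929 of the 2659 reads of the former, and without the top cell of each class the levels were 298.9 and 246.05 CPM. In P2+ CMPs it was 441 CPM (432 to 451) in the 21 cells with Slamf1 and 568 CPM (557 to 579) in the 21 without. The single cells overlapped widely, with medians of 327.1 and 205 CPM in P2- and 439 and 474 CPM in P2+ CMPs. In P2+ MEPs the levels were 168 CPM (163 to 174) with and 158 CPM (151 to 166) without Slamf1, with medians over cells of 152.7 and 92.8 CPM, and without the top cell of each class 153.1 and 124.4 CPM. In P2- MEPs they were 10.9 CPM (7.70 to 14.9) in the 6 cells with Slamf1 and 44.7 CPM (42.2 to 47.3) in the 50 without, with medians over cells of 1.71 and 18.5 CPM and ranges of 0 to 78.7 and 0 to 183.4 CPM. Of the 38 reads in the 6 cells, 30 came from 1 cell, and without the top cells the levels were 2.57 and 41.5 CPM.

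**Figure D3:**
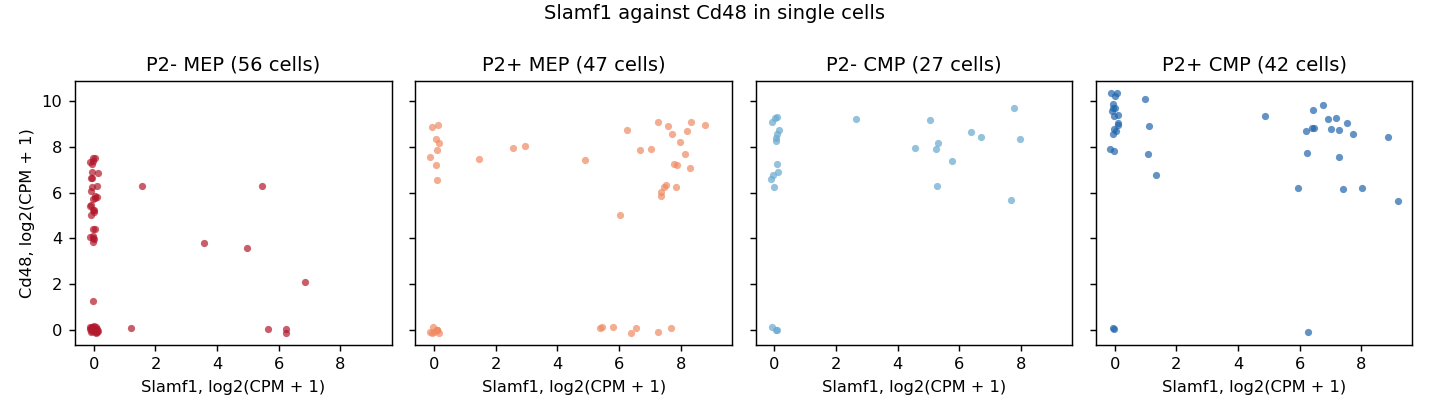
Each point is a cell, with log2(CPM + 1) of Slamf1 on the horizontal and of Cd48 on the vertical axis, unthinned and slightly jittered, 1 panel per population. Most P2- MEPs lie at 0 on the horizontal axis, and cells with reads of both genes take a larger share of the other 3 panels.

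Cells tended to hold more kinds of SLAM transcripts in CMPs and in P2+ MEPs than in P2- MEPs. Counting Slamf1, Cd48, Ly9, Cd84 and Cd244 at 100000 reads, 18 of the 56 P2- MEPs had none of them and 33 had 1. In P2+ MEPs 6 of 47 had none and 28 had at least 2, in P2- CMPs 1 of 27 had none and 20 had at least 2, and in P2+ CMPs 0 of 42 had none and 35 had at least 2. A single P2+ CMP had all 5. Slamf1 and Ly9 met in 12 of 172 cells, Slamf1 and Cd84 in 22, Cd48 and Ly9 in 23 and Cd48 and Cd84 in 40.

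Among the relatives outside the 5 members, Cd84, a receptor of platelets and many leukocytes that binds itself, was lowest in P2- MEPs. Pooled, P2- MEPs held 2.32 CPM (1.81 to 2.93) and P2+ MEPs 29.1 CPM (27.2 to 31.02), against 43.1 CPM (40.2 to 46.3) for P2- and 35.9 CPM (34.01 to 37.9) for P2+ CMPs. A single P2- MEP held 70.4% of the reads of its population, 50 of 71, and without the top cell of each population the levels were 0.699, 25.4, 36.9 and 33.3 CPM. Over single cells it ran from 0 to 85.6, 184, 228.1 and 218.6 CPM in these populations with a median of 0 in each, and all ranges overlapped. Its log2 ratio was 3.65 in MEPs (3.30 to 4.02), -0.26 in CMPs (-0.39 to -0.13), 4.22 between P2- CMPs and P2- MEPs (3.87 to 4.59) and 0.31 between P2+ CMPs and P2+ MEPs (0.18 to 0.43). Without the top cells these ratios were 5.18, -0.15, 5.72 and 0.39, and per ERCC read the ratio in CMPs was 0.066, or -0.24 relative to the median of all genes on that scale. Cd244, the receptor of CD48, had 0 reads in both MEP populations, which allows up to 0.098 CPM in P2- and 0.095 CPM in P2+ MEPs, and was read in 1 of the 27 P2- CMPs and 5 of the 42 P2+ CMPs, at 3.16 CPM (2.4 to 4.09) and 7.04 CPM (6.21 to 7.96). Slamf8, Slamf9 and Cd2, the weaker partner of CD48, had 0 reads, as did the adaptor genes Sh2d1a, Sh2d1b1 and Sh2d1b2. The ligand Cd48 was therefore the most abundant SLAM gene of MEPs while reads of its receptor genes Cd244 and Cd2 were not detectable in them at this depth.

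Of 17 adaptor and signalling genes of the pathway, 13 could be compared in MEPs, and 4 were at a log2 ratio of at least 1 in P2+ over P2- cells, against 13.1% of all genes, with 0 at -1 or below. These were Plcg2, a phospholipase, at 2.81, Dok2, an adaptor that restrains RAS signalling, at 2.51, Prkcq, a protein kinase C, at 1.37 and Vav1, a guanine exchange factor, at 1.01. The list had a median of 0.61, the whole set of genes 0.034. In CMPs 1 of 14 was past 1, Dok1 at 1.15, and 1 was past -1, Lck at -1.29, with a list median of 0.18. These counts are near the shares of all genes, 9.56% and 8.76%. Between P2- CMPs and P2- MEPs 7 of 13 were past 1, against 19.3% of all genes, with a median of 1.02, among them Plcg2 at 3.80, Dok2 at 2.78, Plcg1 at 2.42 and the inhibitory phosphatase genes Inpp5d at 1.23 and Ptpn6 at 1.22, and 1 was past -1, Dok1 at -1.21, against 10.4%. Between P2+ CMPs and P2+ MEPs 5 of 14 were past 1 and 0 past -1, against 16.3% and 10.8% of all genes, with a median of 0.50. The kinase gene Fyn, a usual partner of SAP, was read in every population, at 33.1 and 48.2 CPM in P2- and P2+ MEPs and at 55.1 and 58.7 CPM in P2- and P2+ CMPs. Lck reads came from few cells, which were 2 of the P2+ MEPs, 4 of the P2- CMPs and 6 of the P2+ CMPs.

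The SLAM genes were next set beside their neighbours, protein-coding genes within 500 kb of a member. Around the 7 SLAM genes of the cluster lay 40 others, of which 23 could be compared in MEPs. Of these 23, 5 were at a log2 ratio of at least 1 and 0 at -1 or below, with a median of -0.13, whereas the 4 comparable SLAM genes, Ly9, Cd48, Slamf1 and Cd84, were all past 1, with a median of 2.94. The 5 were Fcer1g at 3.74 (3.2 to 4.34), Pea15a at 2.36 (2.01 to 2.73), Vangl2 at 2.05 (1.72 to 2.39), Arhgap30 at 1.65 (1.52 to 1.79) and F11r at 8.02 (5.53 to 13.3), the last over 1 read in P2- MEPs. Among all genes compared the share at 1 or above was 13.1%. In CMPs 2 of 5 SLAM genes, Ly9 at 1.61 and Cd244 at 1.15, and 1 of 24 neighbours, Usf1 at 1.08, were past 1, against 9.56% of all genes. All 58 reads of Cd244 in P2- CMPs came from 1 cell, so its ratio rests on that cell. A single neighbour, Vangl2 at -1.12, was past -1, against 8.76%.

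**Figure D4:**
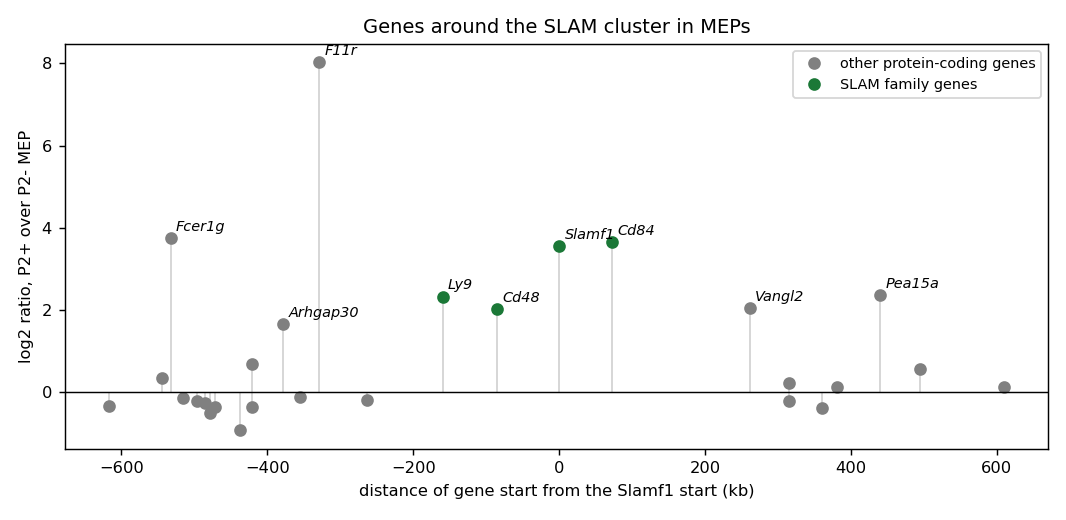
Protein-coding genes within 500 kb of a member that could be compared in MEPs, by the distance of their start from the Slamf1 start in kilobases (horizontal axis) and the log2 ratio of P2+ over P2- MEPs (vertical axis). The 4 SLAM genes lie at 2.01 to 3.65, and 5 of 23 other genes are at 1 or above.

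The populations were checked with genes of the lineages and of the sort, and the shares of 20 such genes were compared in cells with and without each member. A part of these shares is given here, mainly against Slamf1 in CMPs and against Cd48 in MEPs, and none against Ly9. The erythroid factor gene Klf1 was read in all 56 P2- MEPs and 40 of the 47 P2+ MEPs, and in 14 of the 27 P2- CMPs and 2 of the 42 P2+ CMPs without thinning. Cd34, a surface marker of the CMP gate, was read without thinning in 23 of the 27 P2- CMPs and 41 of the 42 P2+ CMPs, in 7 of the 47 P2+ MEPs, and by a single read in 1 of the 56 P2- MEPs. Gata1, which encodes a factor of the erythroid and megakaryocytic lineages, was read in every MEP, with and without Slamf1. In CMPs it was read more often in the cells with Slamf1, in 9 of 11 (81.8%, 48.2 to 97.7%) against 6 of 16 (37.5%, 15.2 to 64.6%) P2- CMPs and in 13 of 21 (61.9%, 38.4 to 81.9%) against 5 of 21 (23.8%, 8.22 to 47.2%) P2+ CMPs, with overlapping intervals. The erythropoietin receptor gene Epor was read in 11 of 21 P2+ CMPs with and 3 of 21 without Slamf1, and in 5 of 11 and 7 of 16 P2- CMPs. The megakaryocytic integrin gene Itga2b, whose protein CD41 was excluded by the sort, was read in 7 of 11 P2- CMPs with and 3 of 16 without Slamf1, and in 12 of 21 and 7 of 21 P2+ CMPs. Of the other megakaryocytic genes, Gp9 was read in 6 of 11 and 6 of 16 P2- CMPs and in 12 of 21 and 9 of 21 P2+ CMPs, and Fli1 in 9 of 11 and 14 of 16 P2- CMPs and 20 of 21 and 16 of 21 P2+ CMPs. Pf4 was read in 0 of 11 P2- CMPs with Slamf1, which allows up to 27.3%, in 2 of 16 without it, and in 3 of 21 and 2 of 21 P2+ CMPs. These genes thus did not share 1 direction in P2- CMPs. Among myeloid genes, Spi1, which encodes the factor PU.1, was read in 6 of 11 CMPs with and 14 of 16 without Slamf1 among P2- cells and in 18 of 21 and 20 of 21 among P2+ cells. Mpo was read in 8 of 11 and 11 of 16 P2- CMPs and in 19 of 21 and 21 of 21 P2+ CMPs. Cebpa was read in 1 of 11 and 0 of 16 P2- CMPs, the latter allowing up to 18.8%, and in 0 of 21, allowing up to 14.3%, and 1 of 21 P2+ CMPs. Klf1 was read in 8 of 11 P2- CMPs with and 6 of 16 without Slamf1, and in 2 of 21 and 0 of 21 P2+ CMPs. Of the stem cell genes in P2- CMPs, Hlf was read in 3 of 11 with and 9 of 16 without Slamf1. Mecom was read in 2 of 11 and 7 of 16 of them and Procr in 1 of 11 and 6 of 16. In P2+ CMPs Hlf was read in 11 of 21 and 13 of 21, Mecom in 10 of 21 and 9 of 21 and Procr in 5 of 21 and 7 of 21. None of these shares were tested, since cells of 1 pool are not replicates.

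The same genes were read against Cd48 in MEPs. Ptprc, the gene of the pan-leukocyte phosphatase CD45, was read in 15 of 32 P2+ MEPs with Cd48 (46.9%, 29.1 to 65.3%) and in 1 of 15 without it (6.67%, 0.169 to 31.9%), with overlapping intervals. In P2- MEPs the order was turned, at 2 of 32 with (6.25%, 0.766 to 20.8%) and 3 of 24 without Cd48 (12.5%, 2.66 to 32.4%). Mpo, which encodes the granule enzyme myeloperoxidase and has 15% of its exon bases overlapped by Gm11505, was read in 9 of 32 P2+ MEPs with Cd48 and 0 of 15 without, which allows up to 20%, and in 3 of 32 and 0 of 24 P2- MEPs, the latter allowing up to 12.5%. Spi1 was read in 14 of 32 and 5 of 15 P2+ MEPs and in 7 of 32 and 2 of 24 P2- MEPs. Cd34 was read in 6 of 32 and 0 of 15 P2+ MEPs. The megakaryocytic genes did not share 1 direction in P2+ MEPs. The platelet glycoprotein gene Gp9 was read in 13 of 32 with and 9 of 15 without Cd48 and Itga2b in 19 of 32 and 12 of 15, whereas Fli1 was read in 22 of 32 and 8 of 15 and Pf4 in 1 of 32 and 0 of 15, the last allowing up to 20%. Only 3 P2- CMPs and 3 P2+ CMPs lacked Cd48, too few for a comparison in CMPs.

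Over all 172 cells, the genes with a pattern most like Slamf1 among 8032 genes read in at least 25% of the cells were Apoe, Fermt3, Gata2, Plek and Celf2, with Spearman's rho of 0.47, 0.42, 0.42, 0.42 and 0.41. Within populations the mean rho was 0.36 for Apoe, 0.20 for Fermt3, 0.28 for Gata2, 0.23 for Plek and 0.19 for Celf2, which was at -0.23 in P2- CMPs and between 0.21 and 0.40 in the other 3 populations. Apoe, a lipid carrier gene, stood at 414 and 1200.0 CPM in P2- and P2+ MEPs and at 865 and 1100 CPM in P2- and P2+ CMPs, and Gata2 at 35.2, 212.1, 174 and 102 CPM. The genes most like Cd48 were Mpo, Coro1a, Cd34, Fxyd5 and Cd93, at 0.63, 0.61, 0.59, 0.59 and 0.58, with mean rho within populations of 0.33, 0.18, 0.29, 0.13 and 0.17, where Fxyd5 was at -0.067 in P2- MEPs and Cd34 and Cd93 had no value there. The overall values hold the differences between the populations, of which CD34 was a sort criterion. Cd48 was number 109 in the Slamf1 list and Slamf1 number 469 in the Cd48 list.

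The summed levels of marker genes of other cells differed between the populations, and not all in the order of Cd48. The summed CPM of 10 granulocyte and monocyte genes was 16.4 and 75.9 in P2- and P2+ MEPs and 428 and 677 in P2- and P2+ CMPs. This was the order of Cd48, shared by the megakaryocytic, stem, lymphoid and macrophage sums below, and the number of the 10 at 0 was 5, 2, 1 and 1. Mpo alone stood at 431 CPM in P2+ CMPs. Ms4a3, at 0, 3.67, 5.40 and 0.028 CPM, and Cebpa, at 0.392, 0.665, 1.47 and 0.330 CPM, did not follow that order. Ctsg and Cebpe, which had few reads, did not follow it either. The sum of 10 megakaryocytic genes was 72.1, 514, 548 and 632 CPM, with Gp9, Pf4, Itgb3 and Gp1bb at 0 in P2- MEPs. The sum of 10 erythroid genes went the other way, from 1583 CPM in P2- MEPs over 1125 and 546 to 195 CPM in P2+ CMPs, but not each gene did. The globin gene Hbb-bt was at 9.51 and 9.79 CPM in P2- and P2+ MEPs and at 232.2 and 120.6 CPM in P2- and P2+ CMPs, and the carbonic anhydrase gene Car1 and the globin gene Hbb-bs were higher in P2+ MEPs, at 299.7 and 110.8 CPM, than in P2- MEPs, at 110.6 and 65.6 CPM. The sum of 10 stem and multipotent genes went from 72.7 CPM in P2- MEPs over 175 and 628 to 700.0 CPM in P2+ CMPs. Among genes of lymphoid and natural killer cells, usual carriers of SLAM receptors, Cd3e, Cd3g, Cd8a, Pax5, Il7r, Ncr1 and Cd2 were at 0 in all 4 populations. The sum over the list was 0.915, 12.7, 23.5 and 43.4 CPM, mostly Nkg7. Cd4 was read in 6 P2+ CMPs, at 6.24 CPM, and Cd79a in 1 P2- CMP, at 3.22 CPM. Klrb1c was read in 1 P2- CMP and 1 P2+ CMP, at 2.73 and 0.688 CPM. Of 10 macrophage and dendritic genes, Adgre1, C1qa, C1qb, Itgax and Siglech were at 0 throughout, and the sum was 1.44, 10.3, 17 and 50.8 CPM. The sum of 6 mast cell and basophil genes was 0.327, 2.69, 72.8 and 34.2 CPM, that of 5 hepatocyte genes 10.6, 10.6, 24.7 and 13.1 CPM and that of 5 endothelial genes 4.80, 18.8, 19.7 and 18.8 CPM. The part of these markers in the SLAM levels was not tested.

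The reads on mouse genes of a cell ran from 295064 to 1540631, with population medians of 520541, 624148, 637603 and 804633 in the order above, so that the P2+ cells were the deeper in both compartments. At equal depth the median number of genes was 5988 and 5470 in P2- and P2+ MEPs and 5669 and 5904 in P2- and P2+ CMPs. A single P2- CMP bore the cell subtype of an MEP in its labels and was kept by its other labels.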

How the data were processed

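Single-cell RNA was measured in the 175 cells of 4 sorted populations. The authors trimmed reads with Trimmomatic 0.36, ran STAR 2.4.2a against GRCm38 joined to the ERCC spike-in sequences, and assigned reads to GENCODE M12 exons by HTSeq 0.6.1p1, ignoring strand. The deposited values are raw counts per gene and cell, and the deposited unmapped reads are a percent of the reads of a cell. Ambiguous reads, 23.3 to 26.9% of those uniquely mapped per population, were dropped by that counting, so genes that share sequence or exons lose reads.

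Cells with fewer than 250000 reads, over 25% unmapped or over 15% ERCC reads were removed (3 cells). Counts were summed per population and divided by reads on mouse genes (CPM). Intervals at 95% were exact Poisson for levels, exact conditional binomial for ratios and Clopper-Pearson for shares. Cells were thinned without replacement to 100000 reads. A population at 0 was set to 3 reads as a bound. For 0 of n cells the limit given is 3 of n, lower than the Clopper-Pearson limit. Genes were compared with at least 20 reads and reads in 5 cells, and a log2 ratio of 1 in size was the threshold. With 1 sample per population no test was run, and plates, which are not given in the sources used here, could not be examined. Exon lengths and positions came from GENCODE vM21 and promoters from RefSeq (4 of the 5 members matched; Ly9 not). Python 3.11.15, scipy 1.17.1, R 4.3.3 and DESeq2 1.42.0 (size factors only) were used. The code for ratios and intervals was run on simulated counts. These were Poisson draws of pooled populations, the model of the intervals. They cannot show how the intervals hold for reads clumped in few cells.

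Members, lists and alternatives were chosen with earlier results of these data known. Genes named were the members, 5 relatives, 17 pathway genes, 20 lineage and sort genes, 9 marker lists, neighbours within 500 kb and the 5 genes of highest Spearman rho with Slamf1 and with Cd48. One gene of the marker lists is not reported here. The alternatives were equal weight per cell, DESeq2 size factors, reads per ERCC read, a denominator without mitochondrial genes and Rn18s-rs5, all deposited cells, leaving out the top cell, the cell of conflicting label or cells with Xist and Y-linked reads, thinning to 50000 or 200000 reads or none, at least 5 reads, and no filter on low counts.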

Additional observations from a re-analysis of the deposited data

Results flagged for a closer look

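Among the SLAM family, signalling and lineage genes, 9 had P2+ over P2- log2 ratios of opposite sign in MEPs and in CMPs, with counting intervals that excluded 0. Of all 11393 genes compared in both compartments, 28.6% met the same rule, so it sets none of the 9 apart. The difference between the compartments was not tested, as each population was 1 sample. The ratio of Cd84 was 3.65 in MEPs and -0.26 in CMPs, and without the top cell of each population, which in P2- MEPs held 70.4% of the Cd84 reads, it was 5.18 and -0.15. The phosphatase genes Inpp5d, at 0.67 and -0.46, and Ptpn11, at 0.39 and -0.57, and the kinase gene Prkcq, at 1.37 and -0.44, were likewise higher in P2+ MEPs and lower in P2+ CMPs. So were the transcription factor genes Gata2, at 2.59 and -0.77, and Fli1, at 3.44 and -0.22, and the adhesion receptor gene Pecam1, at 1.89 and -0.26. The adaptor genes Nck1, at -0.51 in MEPs and 0.55 in CMPs, and Dok1, at -0.33 and 1.15, had the reverse signs. Per ERCC read the signs were no longer opposite for Cd84, Fli1 and Pecam1, at 0.066, 0.11 and 0.067 in CMPs, and for Ptpn11, at -0.23 in MEPs. That scaling moved the median of all genes by 0.33 in CMPs and -0.62 in MEPs, and relative to the median these values were -0.24, -0.20 and -0.24 in CMPs and 0.35 in MEPs, again opposite. Slamf1, Cd48 and Ly9 had positive ratios in both compartments.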

How the results depend on the processing

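Under 8 alternatives each, the ratios of Slamf1, Cd48 and Ly9 kept their direction in all 4 comparisons. Alternative values for the Slamf1 and Cd48 ratios and the share of cells with both numbered 92. Of these, 23 lay outside the interval of the value reported. Between compartments means CMPs over MEPs. With equal weight per cell, the Slamf1 log2 ratio was 3.89 in MEPs and 2.48 between P2- compartments, and that of Cd48 0.75 in CMPs and 1.53 between P2+ compartments. With DESeq2 size factors the values were 3.88 in MEPs and 2.43 between P2- compartments for Slamf1, and 2.15 in MEPs, 0.75 in CMPs, 2.85 between P2- and 1.44 between P2+ compartments for Cd48. Per ERCC read, Slamf1 was at 2.95 in MEPs, 1.23 in CMPs, 1.66 between P2- and -0.056 between P2+ compartments, and Cd48 at 1.40, 1.003, 2.44 and 2.05. That scaling shifted the median of all genes by -0.62, 0.33, -0.51 and 0.43, and relative to the median the values were 3.53, 0.92, 2.12 and -0.48 for Slamf1 and 1.98, 0.70, 2.90 and 1.63 for Cd48. Without the cell of highest CPM, Slamf1 was at 3.88 in MEPs and -0.62 between P2+ compartments, and Cd48 at 0.77 in CMPs. Without cells with Xist and Y-linked reads, Slamf1 was at 1.06 in CMPs and Cd48 at 1.66 between P2+ compartments. The cause of these shifts was not tested. The share of cells with both genes was between 1.79 and 8.93% in P2- MEPs, 44.7 and 51.1% in P2+ MEPs, 36 and 44.4% in P2- CMPs and 45.2 and 54.8% in P2+ CMPs. For these shares the alternative with all deposited cells held 173, since 2 had too few reads to be thinned. Its 1.79% was 1 of 56 P2- MEPs, after another random draw of the reads. Without a filter on low counts, 4183 genes were past 1 and 3166 past -1 in MEPs (1632 and 872 with it), 2922 and 3940 in CMPs (1181 and 1083), 5670 and 2506 between P2- compartments (2370 and 1275) and 4809 and 3902 between P2+ compartments (2081 and 1376). The alternatives for Cd84, for genes with opposite ratios and for Cd48 by Slamf1 were chosen after seeing the data, and the values of Cd84 stand beside its levels. No paired analysis was possible because the labels give each population as 1 pool.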
